A study of Mus musculus with 6 samples.

Results

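The angiopoietin and Tie system was examined in RNA of ischemic gastrocnemius muscle as 7 genes: the ligands *Angpt1* and *Angpt2*, the receptors *Tek* (TIE2) and *Tie1*, and the angiopoietin-like genes *Angptl1*, *Angptl2* and *Angptl4*. They were taken by name from the table of estimated counts, summed over the RefSeq transcripts of each Entrez gene, and all 7 were found among its 18089 genes. The muscles came from 3 wild-type (WT) and 3 GPR174-KO (*Gpr174*-/Y) C57BL/6 mice, young adult males with littermate controls per the methods, and were taken 7 days after hindlimb ischemia (HLI), in which a segment of the femoral artery is ligated and excised. Both groups carried the injury, no uninjured muscle was among these samples, and the deletion of *Gpr174*, a G protein-coupled receptor for lysophosphatidylserine, was present in every cell of the knockout animals. The comparison asks which genes of ischemic muscle differ with the loss of this receptor.

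Angiopoietin-1, secreted mainly by pericytes and other perivascular cells, activates the receptor tyrosine kinase TIE2 on endothelial cells and keeps vessels quiescent and tight. Angiopoietin-2 is released by activated endothelium, acts in most settings as a weak or antagonistic TIE2 ligand, and loosens vessels for sprouting. TIE1 binds neither ligand on its own with high affinity and modulates TIE2 in a shared complex. The angiopoietin-like proteins have the coiled-coil and fibrinogen-like parts of an angiopoietin but do not bind TIE2. ANGPTL4 inhibits lipoprotein lipase and is induced by fasting, hypoxia and PPAR activity, and ANGPTL2 signals through integrin and leukocyte immunoglobulin-like receptors.

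*Angpt1* lies on chromosome 15 of GRCm38 from 42424723 to 42676977 and *Angpt2* on chromosome 8 from 18690263 to 18741562. *Tek* and *Tie1* share chromosome 4, from 94739289 to 94874976 and from 118471191 to 118490061. *Angptl1* lies on chromosome 1 from 156838562 to 156861078, *Angptl2* on chromosome 2 from 33216069 to 33247717 and *Angptl4* on chromosome 17 from 33773750 to 33781830. In GENCODE M21, *Angpt2* sits within *Mcph1*, *Angptl2* within *Ralgps1* and *Angptl1* within *Ralgps2*, each on the opposite strand, and each pair shares 0 exonic bases.

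The sequence before the RefSeq start was held by the promoter table for 4 of the 7 genes. The windows of *Tek*, a receptor that was lower in knockout muscle, and *Angptl2*, the ligand-like gene that did not pass the test, are shown because neither covers an annotated exon. Each is the 250 bases before the RefSeq start on GRCm38.p6, 5′ to 3′ on the strand of the gene, at chr4:94739039-94739288 (plus strand) and chr2:33215711-33215960 (plus strand). Capitals mark GGAA, the core recognised by ETS factors, and TGACG, the core of the cyclic AMP response element, on either strand.
Tek: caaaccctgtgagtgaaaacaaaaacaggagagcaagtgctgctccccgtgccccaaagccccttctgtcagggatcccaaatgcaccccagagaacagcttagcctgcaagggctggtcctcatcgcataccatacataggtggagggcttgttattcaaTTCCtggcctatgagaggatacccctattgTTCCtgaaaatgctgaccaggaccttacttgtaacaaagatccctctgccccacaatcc
Angptl2: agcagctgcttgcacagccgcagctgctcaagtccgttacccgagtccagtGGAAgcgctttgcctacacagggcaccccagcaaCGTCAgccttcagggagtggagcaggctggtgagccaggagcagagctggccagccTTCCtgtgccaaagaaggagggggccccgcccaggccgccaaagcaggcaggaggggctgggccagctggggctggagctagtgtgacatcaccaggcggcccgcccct
The *Tek* and *Angptl2* windows each held 2 GGAA cores, a number reached by 76.9% of 27025 promoters of the same length. The window of *Tie1* held 7, reached by 3.77%, and that of *Angptl1* held 4, reached by 33.4%. Exons annotated by GENCODE M21 cover 212 bases of the *Tie1* window and all 250 of the *Angptl1* window, so these counts are mostly or wholly of exon sequence. TGACG was found once in the *Angptl1* window, once in that of *Angptl2* and in neither receptor window, and at least 1 copy is present in 17.9% of promoters.

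The libraries held between 18417077 and 19394469 estimated counts, of which 3 counts, the smallest number taken as detectable, correspond to at most 0.163 CPM, the counts scaled to a common library size. For *Gpr174* itself the WT libraries held 8, 2 and 5 counts in the order of their numbers, and the knockout libraries 1, 0 and 0. Markers of mature muscle fibres were abundant in all libraries, but with 13.9 to 18.1% of the counts in WT and 7.19 to 7.83% in knockout muscles, and 15 of 15 were lower in the latter (median log2 fold change -1.44). Of the regenerating fibre markers 7 of 10 were higher and 0 lower, and of the macrophage markers 7 of 8 were higher and 0 lower (medians 0.99 and 0.88). Of all genes tested 27.0% were higher and 27.6% lower. By flow cytometry of ischemic gastrocnemius on the same day, the paper reports similar total macrophages in both genotypes. It reports fewer Ly6C-high and more Ly6C-low macrophages in knockout mice. The relation of those cells to the marker RNA was not tested. In 3859 abundant genes, replicate 2 lay between replicates 1 and 3 for 86% in WT and 76.5% in knockout muscles. Among libraries in no order, replicate 2 would on average lie in the middle no more often than the others. Whether the libraries of a group are independent mice could not be checked from the data. P values below take the libraries as independent mice and measure only the spread between them, and each member that passed is also given for replicates 1 and 3 alone.

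Both Tie receptors were lower in knockout than in WT muscles, *Angpt2*, *Angptl1* and *Angptl4* were higher, and *Angptl2* did not pass the test. *Angpt1* was lower with TMM scaling, which sets the bulk of genes at no change, and not lower with total-count scaling. With edgeR's quasi-likelihood test and an adjusted p under 0.05, 6 of the 7 genes passed, 3 higher and 3 lower, where 54.6% of the 14395 genes tested passed (27.0% higher and 27.6% lower). None of the 7 (0 genes) also had an absolute log2 fold change above 1, thresholds passed together by 8.28% of genes (3.45% higher and 4.84% lower). Libraries of WT and knockout muscle were fully apart for 6 members, 3 higher and 3 lower, and for 65.6% of all genes (33.1% higher and 32.4% lower). These shares of all genes are high, so the counts are no result about the members. With replicates 1 and 3 of each group alone 0 of the 7 passed, as did 0 of all genes in edgeR, while 3 of the 7 and 5026 of all genes had an unadjusted p under 0.05.

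**Figure D1:**
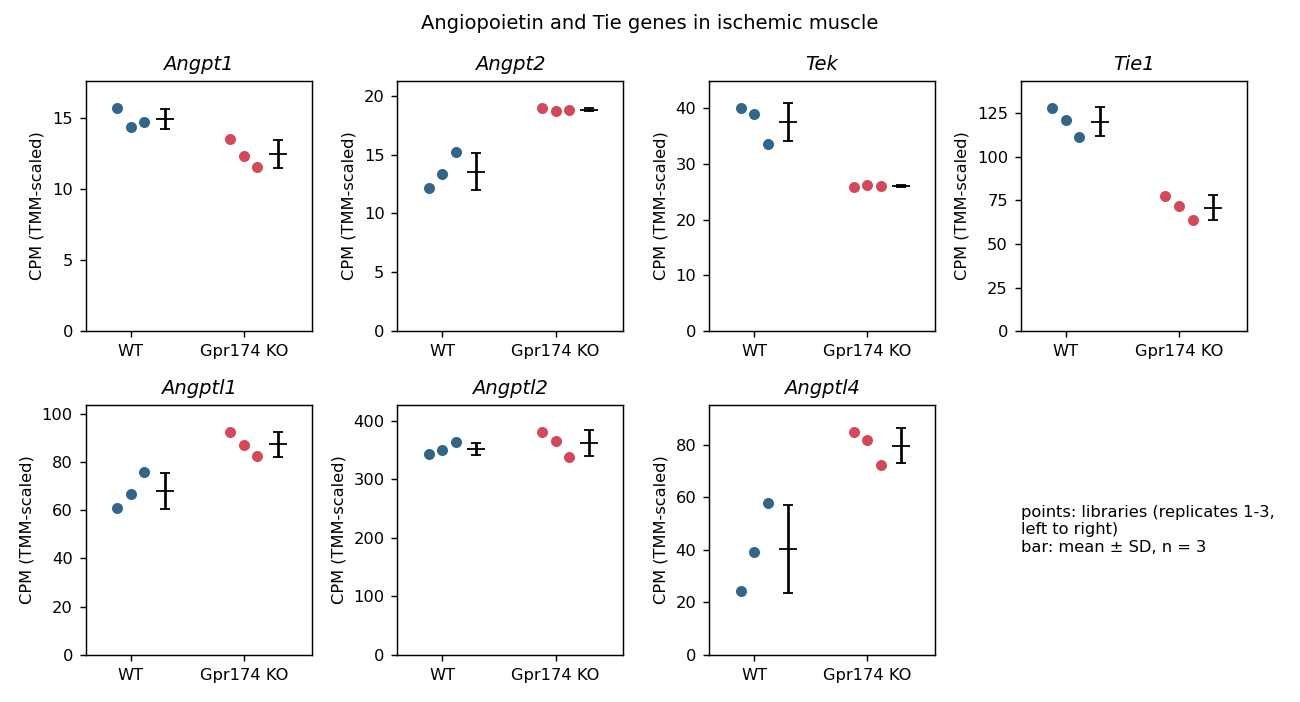
TMM-scaled CPM of the 7 genes (vertical axes from 0) in 3 WT and 3 knockout libraries, with points for replicates 1 to 3 from left to right and the mean ± SD beside them. The groups stand apart in 6 genes and overlap in Angptl2, and the WT libraries of Angptl4 spread from 24.4 to 57.8 CPM.

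*Tie1* was measured at 127.9, 121.2 and 111.0 CPM in WT replicates 1, 2 and 3 and at 77.4, 71.6 and 63.5 in the knockout replicates. Every knockout library was below every WT library, and the gap between the groups exceeded the range within either. On the log2 scale the difference was -0.76 (standard error, SE, 0.09, edgeR adjusted p = 0.00122), a level 0.59 times that of WT. With replicates 1 and 3 alone the same difference had an adjusted p of 0.0545.

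*Tek*, which encodes the angiopoietin receptor TIE2, had 40.0, 38.9 and 33.6 CPM in the WT muscles and 25.9, 26.1 and 26.1 in the knockout muscles. The 3 knockout libraries were almost equal, and WT replicate 3 was the closest to them. The log2 fold change came to -0.53 (SE 0.07, adjusted p = 0.00189 in edgeR), a level 0.694 times that of WT. In TPM the groups met, at 13.01 to 14.19 in WT and 12.13 to 13.01 in knockout muscles. With replicates 1 and 3 alone the log2 fold change was -0.50 with an adjusted p of 0.0673.

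*Angpt2*, the ligand stored and released by endothelial cells, had 12.1, 13.3 and 15.2 CPM in WT and 19.0, 18.7 and 18.8 in knockout muscles. All knockout libraries were above all WT libraries and differed among themselves by a factor of only 1.01, against 1.26 among the WT libraries. On the log2 scale the difference was 0.47 (SE 0.09, edgeR adjusted p = 0.00474), a 1.39-fold higher level. It was 0.46 with replicates 1 and 3 alone, with an adjusted p of 0.0986.

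*Angpt1*, the activating TIE2 ligand, had 15.7, 14.4 and 14.7 CPM in WT and 13.6, 12.3 and 11.6 in knockout muscles. These groups did not overlap, but their unscaled counts did, with 253, 242 and 262 against 284, 262 and 249. The log2 fold change came to -0.26 (SE 0.08, adjusted p = 0.0316 in edgeR) with TMM scaling and 0.01 (adjusted p = 0.876) with total-count scaling. In TPM, which corrects for transcript length and sets every library to the same total, all knockout libraries (6.83 to 7.56) were above all WT libraries (6.25 to 6.71). The call was also lost with DESeq2 (adjusted p = 0.0862), without WT replicate 1 (0.0812), WT replicate 2 (0.0683), knockout replicate 2 (0.108) or knockout replicate 3 (0.0848), and with replicates 1 and 3 alone (0.228).

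*Angptl4*, the lipase inhibitor, showed the largest fold change of the 7. It had 24.4, 39.1 and 57.8 CPM in the WT muscles and 85.1, 82.0 and 72.2 in the knockout muscles. The knockout libraries were close together, whereas the WT libraries differed by a factor of 2.37, the widest spread within a group among these genes. On the log2 scale the difference was 0.98 (SE 0.27, edgeR adjusted p = 0.0212), a 1.97-fold higher level. The call was lost without WT replicate 2 (adjusted p = 0.0714), knockout replicate 1 (0.0674) or knockout replicate 2 (0.0621), and with replicates 1 and 3 alone (0.174).

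*Angptl1*, a secreted family member expressed by stromal cells, was measured at 60.9, 66.7 and 75.8 CPM in WT and 92.6, 86.9 and 82.4 in knockout muscles. The lowest knockout library was above the highest WT library by less than the range within either group. The log2 fold change came to 0.36 (SE 0.09, adjusted p = 0.0128 in edgeR), a 1.29-fold higher level, and with replicates 1 and 3 alone 0.36 with an adjusted p of 0.149. *Angptl2*, the most abundant of the 7, had 342.9, 350.6 and 363.6 CPM in WT and 382.0, 366.2 and 338.3 in knockout muscles. The groups overlapped, with a log2 fold change of 0.04 (SE 0.07, adjusted p = 0.653 in edgeR).

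The scaling decided the place of *Angpt1* and *Angptl2*. Total-count scaling moved the median log2 fold change of all 14395 genes from 0.00 to 0.28, and it moved the 7 genes alike. *Angptl2* then passed the test (0.31, SE 0.08, adjusted p = 0.0112) at about the shifted median, and *Angpt1* stood at 0.01, below it. *Tek* (-0.25, adjusted p = 0.00916) and *Tie1* (-0.49, adjusted p = 0.00156) were still lower, and *Angpt2* (0.74), *Angptl1* (0.63) and *Angptl4* (1.23) still higher. Under that scaling 6 of the 7 passed, 4 as higher and 2 as lower, where 64.7% of all genes passed, 50.7% as higher and 14.0% as lower.

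**Figure D2:**
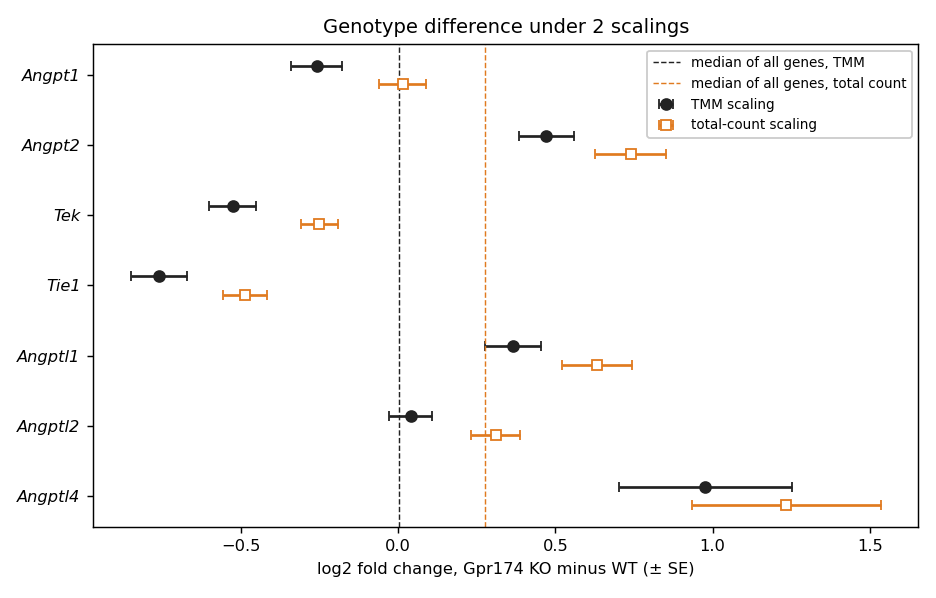
Log2 fold change (knockout minus WT, ± SE, 3 libraries a group) of the 7 genes with TMM scaling (filled circles) and total-count scaling (open squares), with dashed lines at the medians of all genes tested (0.00 and 0.28). Tek and Tie1 lie left of zero and Angpt2, Angptl1 and Angptl4 right of it in both, while Angpt1 moves from -0.26 to 0.01 and Angptl2 from 0.04 to 0.31.

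Levels of different genes were compared in TPM, since CPM favours long transcripts. In WT muscles the order was *Angptl2* (mean 177 TPM), *Angptl1* (54.3), *Tie1* (53.4), *Angptl4* (37.8), *Tek* (13.8), *Angpt2* (6.63) and *Angpt1* (6.48). The ranges of *Angptl1* and *Tie1*, of *Tie1* and *Angptl4*, and of both ligands overlapped there. In knockout muscles *Angptl4* (96.2) and *Angptl1* (91.2), whose ranges overlapped, stood above *Tie1* (41.3), and *Angpt2* (12.01) reached the level of *Tek* (12.5), with overlapping ranges. *Angpt1* (7.14) was lowest in both groups, and in knockout muscles its range no longer met that of *Angpt2*.

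RefSeq transcripts gave no stable picture for the receptor TIE2. Of the 4 *Tek* transcripts, NM_013690.3 was assigned 37.3%, 56.7% and 0% of the gene's TPM in the WT libraries and 64.5%, 90.6% and 43.1% in the knockout libraries. NM_001290549.1 took 100% in WT replicate 3 and 0% in knockout replicates 1 and 2. NM_001290551.1 ranged from 0 to 24.9% in WT and from 1.28 to 27.4% in knockout muscles, and XM_006502930.3 was at most 8.16% in any library. Libraries of 1 group thus differed in the estimated split as much as the groups did, and the total of the gene is the usable value. *Angpt1* was split evenly and stably between XM_006520323.2 (41.4 to 48.5% in WT, 45.7 to 50.5% in knockout) and NM_001286062.1 (50.7 to 57.5% and 48.9 to 54.3%). The third *Angpt1* transcript had at most 1.08%, and of *Angptl2* NM_011923.4 held 89.5 to 95.4% in each library and XM_006498051.1 the rest. The other 4 genes were listed with 1 transcript each.

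**Figure D3:**
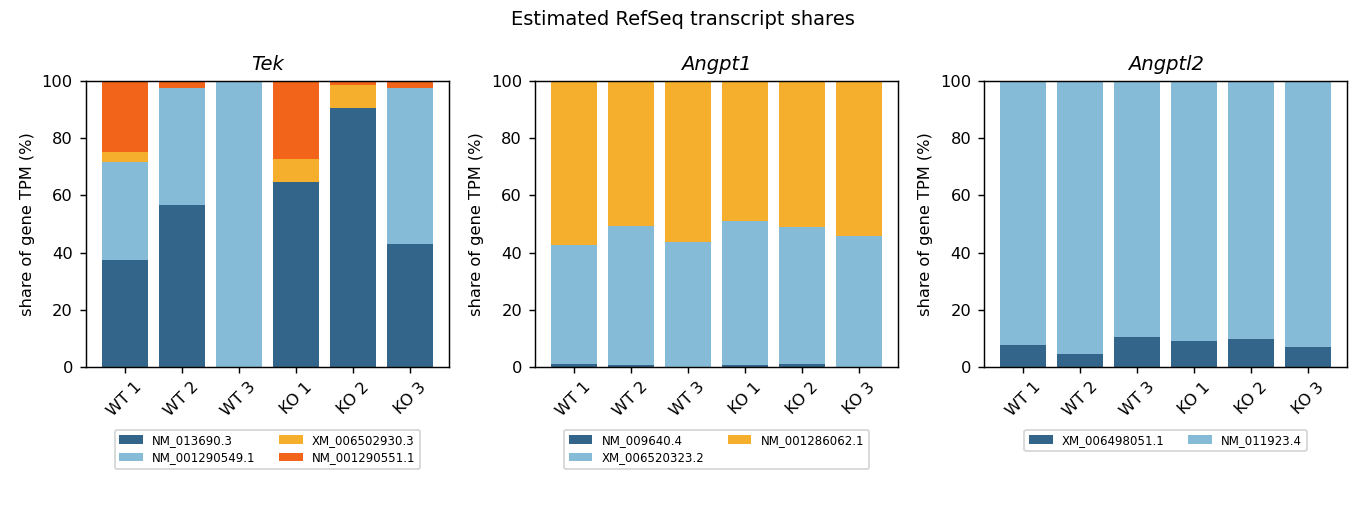
Share of each gene's TPM (percent, stacked to 100) assigned to its RefSeq transcripts in the 6 libraries for Tek, Angpt1 and Angptl2. The Tek bars change from library to library within both groups, with NM_013690.3 between 0% and 90.6%, while the bars of Angpt1 and Angptl2 are alike in all libraries.

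Ratios within a library do not depend on how libraries are scaled to each other, and 6 were computed in TPM. The ratio of *Angpt2* to *Angpt1*, read in the field as the balance of destabilising and stabilising TIE2 ligands, was 0.872, 1.03 and 1.16 in WT replicates 1, 2 and 3 and 1.55, 1.69 and 1.82 in knockout replicates. It was thus near unity in WT muscles (1.02 ± 0.146, SD, n = 3) and higher in every knockout muscle (1.69 ± 0.133, SD, n = 3). The log2 difference was 0.73, a 1.66-fold higher ratio (2-sided exact permutation test, p = 0.1, the smallest that 3 samples against 3 allow, and 0.12 adjusted over the 6 ratios). With each library left out in turn the difference stayed between 0.62 and 0.83. The ratio of *Tek* to *Tie1* was 0.259, 0.264 and 0.249 in WT and 0.277, 0.300 and 0.338 in knockout muscles. It was higher in each knockout library, by 0.24 on the log2 scale (exact permutation p = 0.1, adjusted 0.12).

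In RNA of whole muscle, fewer cells of a type and less RNA per cell cannot be told apart. From sections of ischemic gastrocnemius on the same day after HLI, stained for PECAM1, the paper reports a higher vascular density in knockout mice. The relation of that density to the RNA levels below was not tested. Endothelial markers, which share their cells with both receptors, moved with them, as 13 of 14 were lower and 1 higher (median log2 fold change -0.80, and 12 lower with a median of -0.52 with total-count scaling), where 27.6% of all genes were lower. *Cdh5* (-0.82), *Pecam1* (-0.63), *Sox18* (-0.80) and *Kdr* (-0.91), genes of endothelial junctions, transcription and VEGF sensing, had the highest mean CPM of the list over the 6 libraries and were all lower. The summed level of the list was 879 to 893 TPM in WT and 679 to 730 TPM in knockout muscles, and no marker was at 0. The part of these markers in the receptors' difference was not tested beyond the ratios that follow. *Vwf*, the member that was higher (0.38, SE 0.05, adjusted p = 0.00205 in edgeR), encodes a protein stored in the same endothelial granules as angiopoietin-2 and was named after its value was seen.

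Relative to the geometric mean of the 14 endothelial markers, *Tie1* had ratios of 1.21, 1.19 and 1.15 in WT and 1.16, 1.10 and 1.05 in knockout muscles. The groups overlapped and the log2 difference was -0.10 (exact permutation p = 0.2, adjusted 0.2). With each library left out it ranged from -0.14 without knockout replicate 1 to -0.06 without knockout replicate 3. Against the summed TPM of the list it was -0.05. *Tek* had ratios of 0.313, 0.314 and 0.287 in WT and 0.320, 0.331 and 0.355 in knockout muscles, where it was higher in each library by a log2 difference of 0.14 (exact permutation p = 0.1, adjusted 0.12). That difference was 0.10 without WT replicate 3 or without knockout replicate 3, and at most 0.17, without knockout replicate 1. Against the summed TPM of the list it was 0.19. *Angpt2* parted from the list, with ratios of 0.125, 0.143 and 0.172 in WT and 0.310, 0.314 and 0.338 in knockout muscles. Its log2 difference was 1.14, a 2.204-fold higher ratio (exact permutation p = 0.1, adjusted 0.12), and it stayed between 1.03 and 1.26 with each library left out. Of the lymphatic endothelial markers, 2 of 6 were higher and 1 lower (median -0.38, and -0.10 with total-count scaling). Their summed levels were 64.8 to 77.1 TPM in WT and 93.1 to 123.5 in knockout muscles. *Pdpn* differed most in that sum (mean 33.05 TPM in WT, 69.87 in knockout), and the sum without it was not computed. *Prox1* was the other higher gene, *Flt4* was lower with TMM scaling, and *Lyve1*, *Mmrn1* and *Ccl21a* did not pass.

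Mural cell markers, of the pericytes and smooth muscle cells that express *Angpt1*, did not move as a group, as 4 of 10 were higher and 5 lower (median -0.07, and 0.20 with total-count scaling). Contractile genes went both ways, with *Acta2* (2.30-fold) and *Tagln* (2.01-fold) higher and *Myh11* (0.722 times the WT level) lower. So did pericyte genes, with *Pdgfrb* (1.32-fold) and *Cspg4* (1.24-fold) higher and *Kcnj8* (0.459 times) and *Rgs5* (0.567 times) lower. The ratio of *Angpt1* to the geometric mean of the 10 mural markers was 0.156, 0.142 and 0.145 in WT and 0.133, 0.124 and 0.120 in knockout muscles. The ratio was lower in each knockout library, by 0.23 on the log2 scale (exact permutation p = 0.1, adjusted 0.12), and against the summed TPM of the list, in which *Acta2* had the highest level, by 0.64. The TPM of *Angpt1* was itself higher (mean 6.48 in WT, 7.14 in knockout), and the mural geometric mean rose more (41.4 to 46.3 in WT, 56.6 to 56.9 in knockout). *Acta2* and *Tagln*, with the largest rises of the list, are part of that mean, and the ratio without them was not computed.

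**Figure D4:**
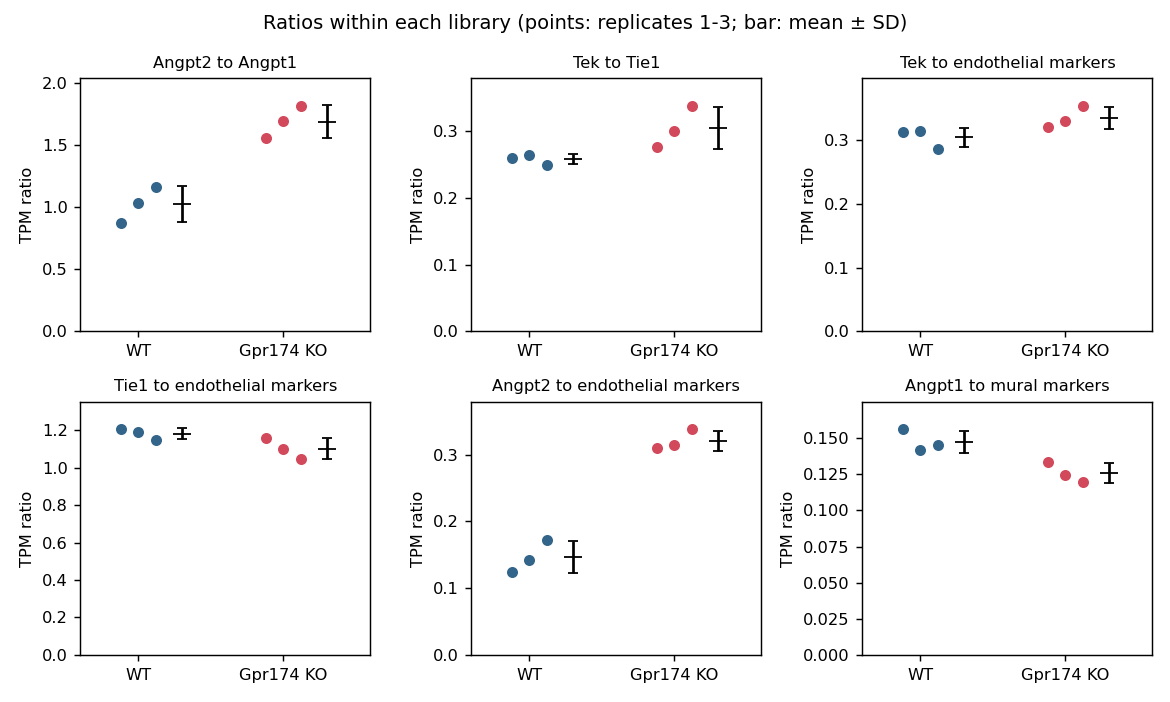
TPM ratios (vertical axes from 0) within each of 3 WT and 3 knockout libraries, with points for replicates 1 to 3 and the mean ± SD, where marker lists enter as their geometric mean. Angpt2 to Angpt1 and Angpt2 to endothelial markers show the widest separation of the groups, and Tie1 to endothelial markers overlaps between them.

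Of 21 tested genes that act with or below TIE2, 6 were higher, 7 lower and 8 did not pass (median 0.05, against 0.00 over all genes). With total-count scaling 13 were higher and 5 lower (median 0.32, against 0.28 over all genes). *Ptprb*, the endothelial phosphatase VE-PTP that dephosphorylates TIE2, had 128, 118.9 and 108.5 CPM in WT and 62.8, 63.6 and 63.5 in knockout muscles. All knockout libraries lay below all WT libraries (log2 fold change -0.90, SE 0.07, adjusted p = 0.000552 in edgeR). *Nos3*, the endothelial nitric oxide synthase that AKT activates, was lower by a similar amount (-0.81, SE 0.07, adjusted p = 0.0007). *Foxo1*, the transcription factor that TIE2 signalling restrains and that drives *Angpt2*, was lower with TMM (-0.41, adjusted p = 0.00394) and not called with total counts (-0.14, adjusted p = 0.119). *Svep1*, a matrix protein that binds TIE1, was higher (0.37, SE 0.09, adjusted p = 0.0123), as were the kinase *Akt1* (0.52, adjusted p = 0.00195) and the integrin chain *Itga5* (0.69, adjusted p = 0.0094), both expressed far beyond endothelium. The values of *Itgb1* (0.21, adjusted p = 0.146) and of the phosphatase *Ptpn11* (0.07, adjusted p = 0.253) did not pass. *Grb7* was removed by the filter on low counts.

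Beside *Angptl4*, the lipase it inhibits did not pass the test, with *Lpl* at 326 ± 14.2 CPM in WT and 313 ± 35.6 in knockout muscles (SD, n = 3, log2 fold change -0.06, adjusted p = 0.626 in edgeR). *Gpihbp1*, which carries that lipase to the capillary lumen and is made by endothelium, was lower (-1.29, SE 0.07, adjusted p = 0.000312). The fatty acid regulator *Ppara* (-1.47, adjusted p = 0.000409) and the pyruvate dehydrogenase kinase *Pdk4* (-1.37, adjusted p = 0.00062), a PPAR target like *Angptl4*, were lower. The other PPAR genes of the list, *Ppard* (-0.09, adjusted p = 0.327 in edgeR) and *Pparg* (-0.05, adjusted p = 0.606), did not pass. The lipid droplet gene *Plin2* (0.64, adjusted p = 0.00355) and the fatty acid importer of mitochondria *Cpt1a* (0.24, adjusted p = 0.0452), PPAR targets too, were higher, as was the hypoxia factor *Hif1a* (0.91, adjusted p = 0.00196). The other hypoxia factor of the list, *Epas1* (-0.74, adjusted p = 0.00157 in edgeR), was lower, as was *Cd36* (-0.38, adjusted p = 0.00876). From pimonidazole staining of ischemic muscle on the same day after HLI, the paper reports less hypoxia in knockout mice. The relation of that staining to these RNA levels was not tested. Of the 12 tested genes of this lipase, PPAR and hypoxia factor list, 3 were higher, 5 lower and 4 not called (median -0.07, and 0.20 with total-count scaling), and *Lipc* and *Lipg* were removed by the filter. Adipocyte markers, cells that also make ANGPTL4, had 2 of 7 higher and 1 lower (median 0.06), with summed levels of 1132 to 1277 TPM in WT and 1012 to 1191 in knockout muscles. *Fabp4*, which endothelium also expresses, made up most of that sum and was lower (931 TPM in WT and 688 in knockout muscles). *Adipoq* (1.87-fold) and *Plin1* (1.81-fold), which are specific to adipocytes, were higher. The rest of the list was not called, with log2 fold changes of 0.40 for *Cidec*, 0.06 for *Cfd*, -0.08 for *Lep* and -0.89 for *Retn*. None of these markers was at 0, and their part in the *Angptl4* difference was not tested.

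**Figure D5:**
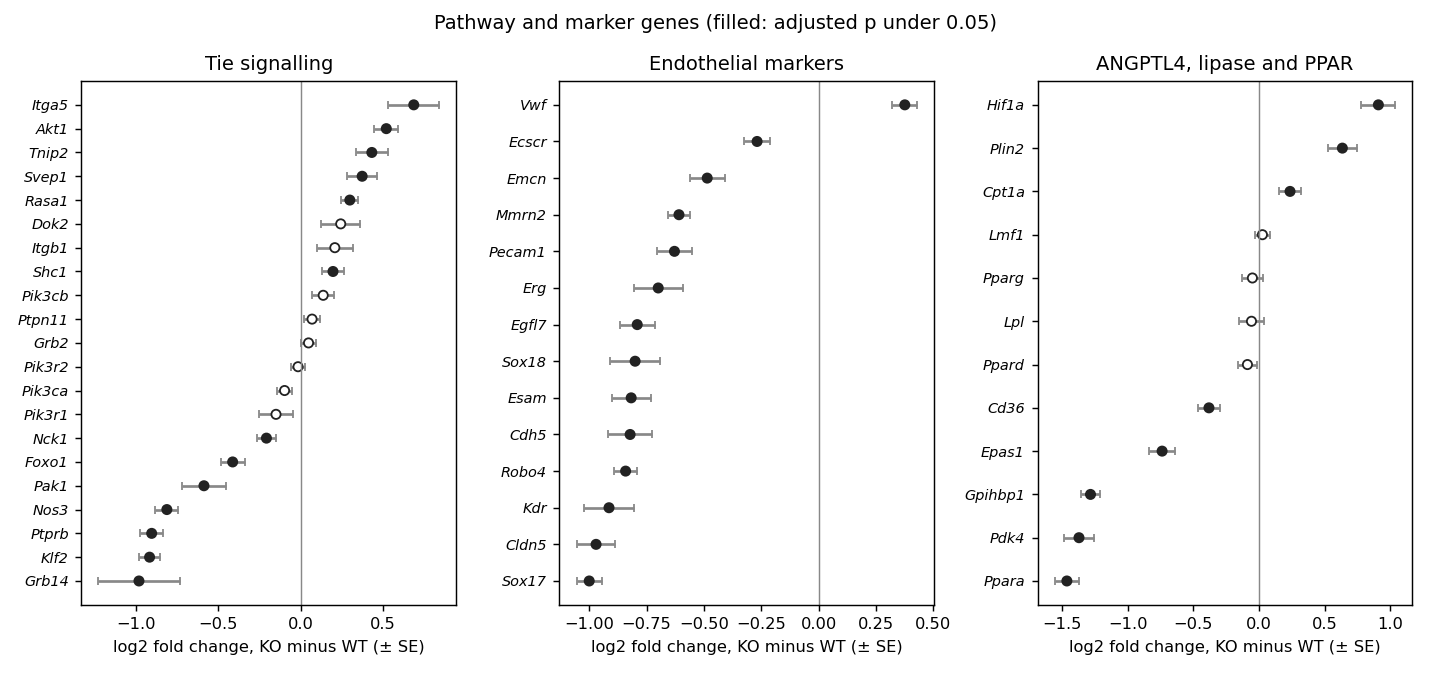
Log2 fold change (knockout minus WT with TMM scaling, ± SE, 3 libraries a group) of the tested Tie signalling genes, endothelial markers and ANGPTL4, lipase and PPAR genes, with filled points at an adjusted p under 0.05. The Tie signalling genes lie on both sides of zero, 13 of the 14 endothelial markers lie left of it, and Gpihbp1, Pdk4 and Ppara lie furthest left in the last panel.

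For *Angptl2*, the receptor *Pirb* was higher (50.2 ± 15.9 CPM in WT and 95.3 ± 12.5 in knockout muscles, SD, n = 3, log2 fold change 0.92, adjusted p = 0.0123 in edgeR), with *Itga5* as given above, so that 2 of 3 receptor genes were higher and 0 lower (median 0.69). Of all genes 27.0% were higher. With total-count scaling 3 of the 3 were higher, as were 50.7% of all genes. Fibroblast markers, of cells that express *Angptl1* and *Angptl2*, went both ways, as 4 of 10 were higher and 5 lower (median -0.09, and 0.18 with total-count scaling). The collagen gene *Col1a1* (0.87) and the matricellular gene *Postn* (1.15) were higher, and *Pi16* (-1.12), *Cd34* (-1.04) and the matrix proteoglycan genes *Dcn* (-0.57) and *Lum* (-0.81) lower. *Dpt* did not pass (0.02, adjusted p = 0.869). The summed level of that list was 6287 to 10040 TPM in WT and 16430 to 16620 TPM in knockout muscles, and its part in the difference of *Angptl1* was not tested.

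Of the other family members *Angptl7*, at a mean of 10.54 TPM in WT muscles above *Angpt1* and *Angpt2* there, was lower (12.3 ± 2.53 CPM in WT and 4.45 ± 0.842 in knockout muscles, SD, n = 3, log2 fold change -1.47, adjusted p = 0.00161 in edgeR), past both the p and the fold thresholds. *Angptl6* (-0.46, adjusted p = 0.0707) and *Angpt4* (0.47, adjusted p = 0.253) did not pass, so that 1 of 3 was lower and 0 higher (median -0.46). *Angptl8* was removed by the filter, with at most 7 counts in any library. Genes enclosing members on the opposite strand were compared by value only. *Mcph1* was at 0.33 beside *Angpt2* at 0.47, *Ralgps2* at 0.89 beside *Angptl1* at 0.36, and *Ralgps1* at -0.38 beside *Angptl2* at 0.04, so that 2 were higher and 1 lower (median 0.33).

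Profiles most like those of the members were sought among 13635 genes with a mean of at least 1 CPM, by the root mean square difference of centred log2 CPM over the 6 libraries, a description to which the group difference contributes most. Nearest to *Angpt2* were *Arpc2* (0.0102), *Colgalt1* (0.0112) and *Myh9* (0.0142), and nearest to *Angpt1* were *Mlst8* (0.0229), *Angel1* (0.0261) and *Jmjd4* (0.0280). For *Tek* they were *Lysmd1* (0.0172), *Phospho2* (0.0180) and *Cuta* (0.0199), and for *Tie1* *Bves* (0.0138), *Smagp* (0.0224) and *Cox6b1* (0.0278). Those of *Angptl4* lay further off, with *St8sia2* at 0.0264, *Col8a2* at 0.0492 and *Adgrg2* at 0.0661. No member of the system was among the 3 nearest genes of these 5.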

How the data were processed

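For 6 muscle libraries the authors deposited expected counts (estimated reads, not normalized), FPKM and TPM of 58843 RefSeq transcripts in a single table. The submitters' processing notes name HISAT2 2.0.4, Bowtie2 2.2.5, RSEM 1.2.12 and GRCm39 without roles. The strand setting is not given in the sources used here, the labels name an Illumina kit and the methods a BGISEQ platform. The group means deposited by the authors were not used.

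Counts were summed per Entrez gene (18089 genes, 99.7% with a symbol) and rounded. Genes were compared with edgeR 4.0.16 in R 4.3.3 by its robust quasi-likelihood test, after TMM scaling and filterByExpr, with Benjamini-Hochberg adjustment over the 14395 genes kept. Calls needed an adjusted p under 0.05, or that and a log2 fold change beyond 1 in size. Ratios of TPM were compared with exact permutation tests. Positions come from GENCODE M21 on GRCm38 and promoters from RefSeq on GRCm38.p6, since the deposited table holds no coordinates.

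The members and gene lists were chosen with earlier results of these data known. Named genes were all members, list genes past both thresholds or most abundant in their list, a fixed set of pathway genes, transcripts with at least 5% of a gene's TPM in a library, and the 3 nearest profiles. *Vwf*, *Myh11*, *Pdgfrb*, *Cspg4*, *Plin2*, *Cpt1a*, *Hif1a*, *Dcn*, *Lum*, *Dpt*, *Fabp4*, *Adipoq* and *Plin1* were named after their values were seen. The same holds for *Epas1*, *Cd36*, *Cidec*, *Cfd*, *Lep* and *Retn*. It also holds for *Pdpn*, *Prox1*, *Flt4*, *Lyve1*, *Mmrn1*, *Ccl21a*, *Ppard* and *Pparg*. Alternatives were DESeq2 1.42.0, limma 3.58.1 (voom, and log2(FPKM + 1) or log2(FPKM + 0.1) for genes with FPKM of at least 1 in 3 libraries), upper-quartile and total-count scaling, leaving the filter out, a minimum of 10 counts per library, a replicate block, each library left out, and replicates 1 and 3 alone. The fits were checked on simulated counts. Tests of ratios went through every split of the libraries in Python 3.11.15 with numpy 2.4.6. The floor of 3 counts covers counting error only.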

Additional observations from a re-analysis of the deposited data

How the results depend on the processing

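*Tek* and *Tie1* were lower and *Angpt2*, *Angptl1* and *Angptl4* higher in all 16 alternatives to their edgeR values, and the calls of *Tek*, *Tie1*, *Angpt2* and *Angptl1* were lost in 1 of them each. With replicates 1 and 3 of each group alone, 0 members, 0 list genes and 0 of all genes passed at any fold or past both thresholds, with -0.28 for *Angpt1* (adjusted p = 0.228), 0.46 for *Angpt2* (0.0986), -0.50 for *Tek* (0.0673), -0.76 for *Tie1* (0.0545), 0.36 for *Angptl1* (0.149) and 0.93 for *Angptl4* (0.174). *Angpt1* was -0.26 with DESeq2 (adjusted p = 0.0862) and reversed to 0.014 with total counts, 0.018 with limma on log2(FPKM + 1) and 0.023 on log2(FPKM + 0.1), while *Angptl2* passed there with 0.31, 0.31 and 0.31. The list of lipase, PPAR and hypoxia genes reversed to medians of 0.20, 0.19 and 0.20 in the same fits. Past both thresholds was 1 member, *Angptl4*, with upper-quartile or total-count scaling, limma voom, the replicate block and both FPKM fits (1 each). All genes past both thresholds numbered 645 with log2(FPKM + 1), against 1192.

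With 1 library left out, 924 to 1826 genes passed both thresholds, the highest without WT replicate 3, and 5457 to 9165 at any fold. Of the members, 4 to 6 passed, 0 to 1 past both thresholds. *Angpt1* ranged from -0.32 to -0.21 and *Angptl4* from 0.725 to 1.33, and each lost its call without the libraries named in its account. Same-numbered libraries came from mice of different genotype, and their deviations from the group means correlated between -0.0281 and 0.0163 over genes. With 3 libraries a group, these correlations cannot tell whether same-numbered libraries shared a batch. The replicate block gave 1139 genes and called 6 members. Causes were not tested, except that the scaling moves all genes alike. Depth limits *Gpr174* and *Angptl8*, with at most 8 counts.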
